A study of Arabidopsis thaliana with 4 samples.

Results

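The expansin superfamily of Arabidopsis thaliana was followed in the transcriptome of seedlings with raised levels of HBI1, a transcription factor of the basic helix-loop-helix (bHLH) family. Members were taken by locus name as a gene family, with earlier results of these data known, and comprised 25 alpha-expansin genes (EXPA1 to EXPA18 and EXPA20 to EXPA26), 5 beta-expansin genes (EXPB1 to EXPB5), 3 expansin-like A genes (EXLA1 to EXLA3) and 1 expansin-like B gene (EXLB1). These 34 genes stood among 33518 loci of the count tables, and 27 of them had at least 1 read in some library. Total RNA of whole seedlings grown for 5 days on MS medium of reduced strength under constant light was sequenced in 4 libraries, 2 of the line HBI1-Ox, which carries HBI1 fused to YFP behind the 35S promoter (35S::HBI1-YFP), and 2 of the wild-type accession Col-0. The 35S promoter of cauliflower mosaic virus is active in most plant tissues, so the transgene is not limited to 1 tissue. With 1 such genotype beside Col-0, the level of HBI1 and any other difference of the line cannot be told apart.

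Expansins are small secreted proteins that loosen plant cell walls without cutting their polymers, and they act best at the acid pH that proton pumps of the plasma membrane create in the wall. Alpha- and beta-expansins have this activity, whereas the expansin-like A and B proteins are known mainly by their related sequence. In seedlings single members are typically tied to particular growing tissues, such as root hairs, lateral root primordia or the endosperm of the germinating seed, and growth hormones such as brassinosteroid and gibberellin raise the transcripts of several of them.

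Reads counted on genes ranged from 14981824 to 19647745 in HBI1-Ox and from 10785178 to 13068448 in Col-0. HBI1 itself had 29143 and 21481 reads in the HBI1-Ox libraries and 1345 and 975 reads in the Col-0 libraries, so the libraries matched their labels; it rose by 4.06 ± 0.09 on the log2 scale (edgeR adjusted p = 1.7e-05). The libraries of HBI1-Ox differed from each other by little: a chi-square test of read counts told 0 of the 24 expansin genes with at least 20 reads in the pair apart, against 7 of 24 between the Col-0 libraries (EXPA1, EXPA3, EXPA10, EXPA11, EXPA15, EXPA17 and EXLA2). Over all nuclear genes with that many reads, 0.318% were told apart between the HBI1-Ox libraries and 11.6% between the Col-0 libraries; this test holds a difference against counting error alone. Separate cultures are not named in the labels, and all p-values therefore describe the spread among these 4 libraries, which may be technical. Markers of leaf and root were present in all libraries as whole seedlings would give, with 3 leaf mesophyll markers summing to 22723 and 23767 CPM (reads scaled to library size) in HBI1-Ox and to 19121 and 18121 CPM in Col-0, and 3 endodermis markers to 133 and 128 CPM in HBI1-Ox and to 145 and 150 CPM in Col-0, where 1 of the 3 (CASP2) was called lower in HBI1-Ox. Both pollen markers (VGD1 and VGDH1) had 0 reads in every library. In bulk RNA, fewer cells of a type and less RNA per cell cannot be told apart.

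The stretch of 250 bases before the annotated gene start is shown for 4 members (RefSeq TAIR10.1, 5′ to 3′ on the gene's strand): EXPA1, EXPA8 and EXPA11, which had the highest levels among the members that rose, and EXPA10, the closest relative of EXPA1, which did not rise. They were chosen after their values were seen. Capitals mark the E-box CANNTG, the hexamer that bHLH proteins bind; it reads the same on both strands in this notation, and overlapping copies are marked as 1 run. EXPA1 (chr1:26141476-26141725, plus strand), EXPA10 (chr1:9259182-9259431, plus strand), EXPA8 (chr2:16950706-16950955, minus strand) and EXPA11 (chr1:6999840-7000089, minus strand) read as follows.
EXPA1: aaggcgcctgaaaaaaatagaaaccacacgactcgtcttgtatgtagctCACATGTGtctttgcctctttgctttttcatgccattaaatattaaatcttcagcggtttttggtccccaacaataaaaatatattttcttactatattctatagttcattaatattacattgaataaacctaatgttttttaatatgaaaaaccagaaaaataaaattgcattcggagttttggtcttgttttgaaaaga
EXPA10: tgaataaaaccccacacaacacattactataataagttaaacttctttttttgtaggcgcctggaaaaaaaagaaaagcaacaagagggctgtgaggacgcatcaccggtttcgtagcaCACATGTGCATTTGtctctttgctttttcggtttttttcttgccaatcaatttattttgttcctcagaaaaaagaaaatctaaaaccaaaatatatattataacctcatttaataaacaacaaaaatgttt
EXPA8: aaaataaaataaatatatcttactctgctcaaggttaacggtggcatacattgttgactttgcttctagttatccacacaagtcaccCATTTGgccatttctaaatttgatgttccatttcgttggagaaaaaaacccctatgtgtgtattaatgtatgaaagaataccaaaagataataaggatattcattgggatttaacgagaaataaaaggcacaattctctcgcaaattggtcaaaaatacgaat
EXPA11: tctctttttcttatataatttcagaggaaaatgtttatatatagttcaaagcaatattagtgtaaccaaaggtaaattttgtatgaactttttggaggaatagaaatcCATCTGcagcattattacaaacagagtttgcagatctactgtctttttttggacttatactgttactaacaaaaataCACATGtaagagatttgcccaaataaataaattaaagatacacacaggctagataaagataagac

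At least 1 E-box stood in 23 of the 34 members' stretches (67.6%), against 55.3% of 27437 protein-coding genes. The G-box CACGTG, an E-box that many bHLH factors favour, stood in 1 member, EXPB2 (2.94%, against 6.49% of all promoters). The stretches of EXPA1 and EXPA10 both held CACATGTG, in which the E-boxes CACATG and CATGTG overlap. No other member had it, and 0.375% of all promoters did. CACATG or its reverse complement CATGTG stood in 8 members, against 11.1% of all promoters. EXPA1 and EXPA10 also shared a run of 14 bases, ctctttgctttttc, downstream of that element; the median longest run shared by a pair of member promoters was 9 bases. Of the 561 pairs compared others shared runs as long, such as EXPA15 with EXPA22 and EXPA21 with EXPA23 (14 bases each). Among the 9 members that rose in HBI1-Ox 6 had an E-box, and among the 15 tested members that did not pass 10 had one. A match is a description of the letters and not evidence of binding.

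Of the 34 members, 24 had enough reads to be tested, 9 rose in HBI1-Ox, none fell and 15 did not pass (quasi-likelihood test of edgeR, p adjusted after Benjamini and Hochberg over all 20320 tested genes, threshold 0.05). Across all tested genes 8.33% were called higher and 7.15% lower, or 15.5% in either direction. The 9 that rose were EXPA1, EXPA2, EXPA8, EXPA9, EXPA11, EXPA16, EXPB1, EXPB3 and EXLB1, which are 6 of 18 tested alpha-expansins, both tested beta-expansins and the expansin-like B gene. None of the 3 expansin-like A genes passed. The median log2 change of the 24 tested members was 0.16 against -0.01 for all tested genes, and 16 members had a positive and 8 a negative value. At least 2-fold rises numbered 5 (EXPA8, EXPA11, EXPA16, EXPA2 and EXPA1), a class that held 1.28% of all tested genes, and no member was called lower at that size, against 2.53% of all tested genes. At an unadjusted p under 0.05 there were 15 of 24 members in either direction, against 30.7% of all tested genes. DESeq2 and limma-voom also called 9 members higher and 0 lower, where 5.66% and 8.71% of all tested genes were called higher and 4.15% and 7.26% lower.

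These calls rested on few libraries. Without HBI1-Ox library 1, 3 members rose (EXPA8, EXPA16 and EXPB1) and none fell, and without HBI1-Ox library 2 or after both HBI1-Ox libraries were added together EXLB1 was added to them. In these settings 1.17%, 1.40% and 1.48% of all tested genes were called higher. Leaving out Col-0 library 1 gave 13 members higher and 5 lower (EXPA4, EXPA5, EXPA10, EXPA17 and EXLA3), where 17.0% of all tested genes were called higher and 14.5% lower. Leaving out Col-0 library 2 gave 12 higher and 3 lower (EXPA4, EXPA5 and EXPA10), where 14.5% of all tested genes were called higher and 13.4% lower. In such fits the remaining single library is taken to be as variable as the opposite group. With scaling by total counts, which moved the median log2 change of all genes to -0.16, 8 members rose and 3 fell (EXPA4, EXPA5 and EXPA10), where 4.90% of all tested genes were called higher and 17.2% lower, and 22.2% of all calls were higher in place of 53.8%. EXPB3 was the member lost there (adjusted p = 0.0833). EXPA8, EXPA16 and EXPB1 passed in all 12 alternative fits.

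**Figure D1:**
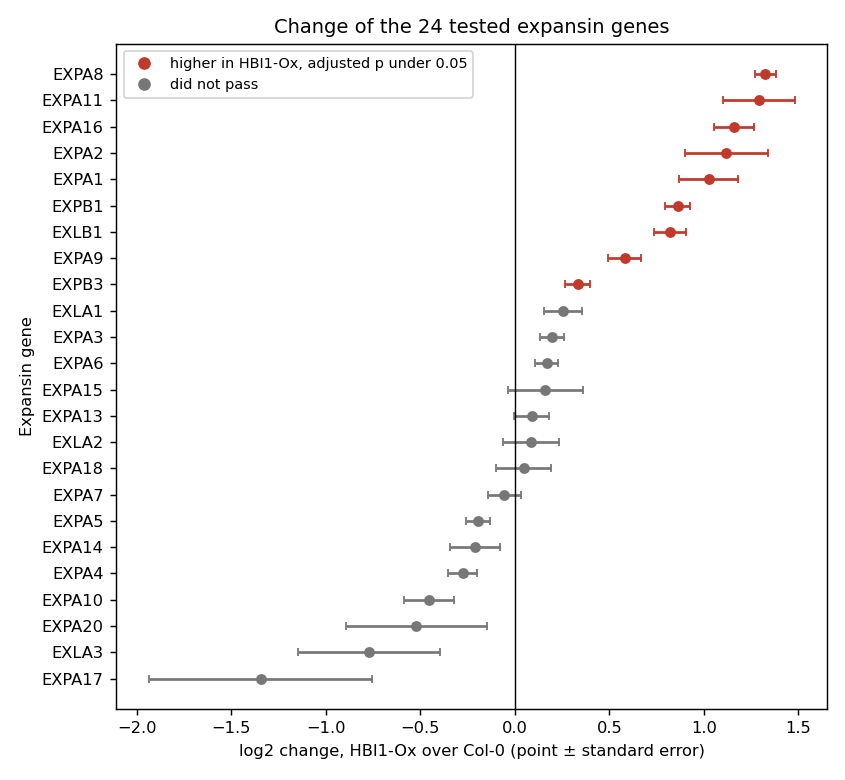
The log2 change of HBI1-Ox over Col-0 is plotted for the 24 tested expansin genes, with bars of 1 standard error from the edgeR fit. The 9 genes in red passed the test and lie between 0.33 (EXPB3) and 1.33 (EXPA8), and the 15 in grey lie between -1.35 (EXPA17) and 0.26 (EXLA1).

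Levels of different genes were compared as reads per kilobase of annotated exon, scaled to library size (RPKM). EXPA1 (AT1G69530; chromosome 1, 26141726 to 26143538, plus strand, 4 coding exons), which encodes an expansin tied to stomatal movement and to lateral root initiation, was the member with the highest level in both groups. It stood at 326 and 309 RPKM in the HBI1-Ox libraries, against 128 and 184 RPKM in the Col-0 libraries. Both HBI1-Ox libraries were above both Col-0 libraries, and EXPA1 had a log2 change of 1.03 ± 0.16 (standard error, here and in all log2 changes; edgeR adjusted p = 0.00788). The Col-0 libraries stood apart for this gene, with 1.44 times as much in library 2 as in library 1, and the log2 change was 1.31 with Col-0 library 2 left out, or 0.80 with Col-0 library 1 left out. It did not pass with either HBI1-Ox library left out or with these summed (adjusted p between 0.0806 and 0.0981). The 3 guard cell markers (KAT1, MYB60 and FAMA) did not pass, and summed to 39.7 and 41.7 CPM in HBI1-Ox and to 46.8 and 52.6 CPM in Col-0.

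EXPA8 (AT2G40610; chromosome 2, 16948791 to 16950705, minus strand, 3 coding exons) had rank 2 by level in both groups. Its level was 216 and 206 RPKM in HBI1-Ox and 84.5 and 83.7 RPKM in Col-0. The libraries of each group lay close together and the groups were far apart. EXPA8 rose by 1.33 ± 0.06 (edgeR adjusted p = 0.000125), which is 2.51-fold.

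EXPA11 (AT1G20190; chromosome 1, 6998335 to 6999839, minus strand, 3 coding exons) had 129 and 117 RPKM in HBI1-Ox and 39.2 and 61.9 RPKM in Col-0. It had rank 3 in HBI1-Ox and rank 6 in Col-0, where its values overlapped those of EXPA5, EXPA6 and EXPA3 (ranks 5, 4 and 3). EXPA11 rose by 1.29 ± 0.19 (edgeR adjusted p = 0.00724). Its Col-0 libraries differed 1.58-fold, so that the log2 change was 1.01 with Col-0 library 1 left out, or 1.66 with Col-0 library 2 left out, and it did not pass with fewer or summed HBI1-Ox libraries (adjusted p between 0.0706 and 0.0902).

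The other alpha-expansins that rose were less abundant. EXPA16 (AT3G55500; chromosome 3, 20574752 to 20576249, minus strand) had 13.8 and 14.4 RPKM in HBI1-Ox and 6.08 and 6.59 RPKM in Col-0, and rose by 1.16 ± 0.11 (edgeR adjusted p = 0.00128). EXPA9 (AT5G02260) had 31.6 and 30.5 RPKM in HBI1-Ox and 19.2 and 22.5 RPKM in Col-0, and rose by 0.58 ± 0.09 (edgeR adjusted p = 0.00737). The groups of both genes did not overlap. EXPA2 (AT5G05290), which acts in seed germination, was the lowest of the rising members, with 147 and 116 reads (7.68 and 7.92 RPKM) in HBI1-Ox and 39 and 53 reads (2.80 and 4.47 RPKM) in Col-0. EXPA2 rose by 1.12 ± 0.22 (edgeR adjusted p = 0.0201). Its log2 change was 0.81 with Col-0 library 1 left out, or 1.47 with Col-0 library 2 left out. The 4 seed storage and oil body markers (OLEO1, CRA1, CRU3 and SESA3) summed to 14.7 and 16.2 CPM in HBI1-Ox and to 11.2 and 16.0 CPM in Col-0, and none of the 3 tested among them passed. EXPA2 and EXPA9 did not pass with either HBI1-Ox library left out or with these summed (adjusted p between 0.138 and 0.164 for EXPA2 and between 0.0908 and 0.118 for EXPA9).

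Both tested beta-expansin genes rose, with their libraries close together in each group. EXPB1 (AT2G20750; chromosome 2, 8940833 to 8942706, plus strand, 4 coding exons) had 25.3 and 25.8 RPKM in HBI1-Ox and 14.3 and 13.8 RPKM in Col-0, a rise of 0.86 ± 0.07 (edgeR adjusted p = 0.000734). EXPB3 (AT4G28250) had 42.6 and 45.0 RPKM in HBI1-Ox and 35.5 and 34.1 RPKM in Col-0, a rise of 0.33 ± 0.06 (edgeR adjusted p = 0.0193). EXPB3 was the smallest rise, and it did not pass with either HBI1-Ox library left out or with these summed (adjusted p between 0.163 and 0.240).

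EXLB1 (AT4G17030), the single expansin-like B gene, had 22.3 RPKM in each HBI1-Ox library and 12.2 and 13.1 RPKM in Col-0. EXLB1 rose by 0.82 ± 0.08 (edgeR adjusted p = 0.00195) and passed in 11 of 12 alternative fits, missing without HBI1-Ox library 1 (adjusted p = 0.0556). The expansin-like A genes had small or uncertain changes. EXLA1 (AT3G45970) had 25.6 and 24.5 RPKM in HBI1-Ox and 22.8 and 19.1 RPKM in Col-0 (log2 change 0.26 ± 0.10, edgeR adjusted p = 0.140). EXLA2 (AT4G38400), whose loss is known to raise resistance to necrotrophic fungi, had 18.2 and 16.6 RPKM in HBI1-Ox and 18.9 and 13.8 RPKM in Col-0, and the groups overlapped. EXLA3 (AT3G45960) had 22 and 21 reads in HBI1-Ox and 21 and 35 reads in Col-0 (log2 change -0.77 ± 0.38, edgeR adjusted p = 0.225). Its value hung on Col-0 library 2, since it passed as lower without Col-0 library 1 (log2 change -1.20, adjusted p = 0.00499), where EXLA1 and EXLA2 passed as higher (0.41 and 0.35).

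**Figure D2:**
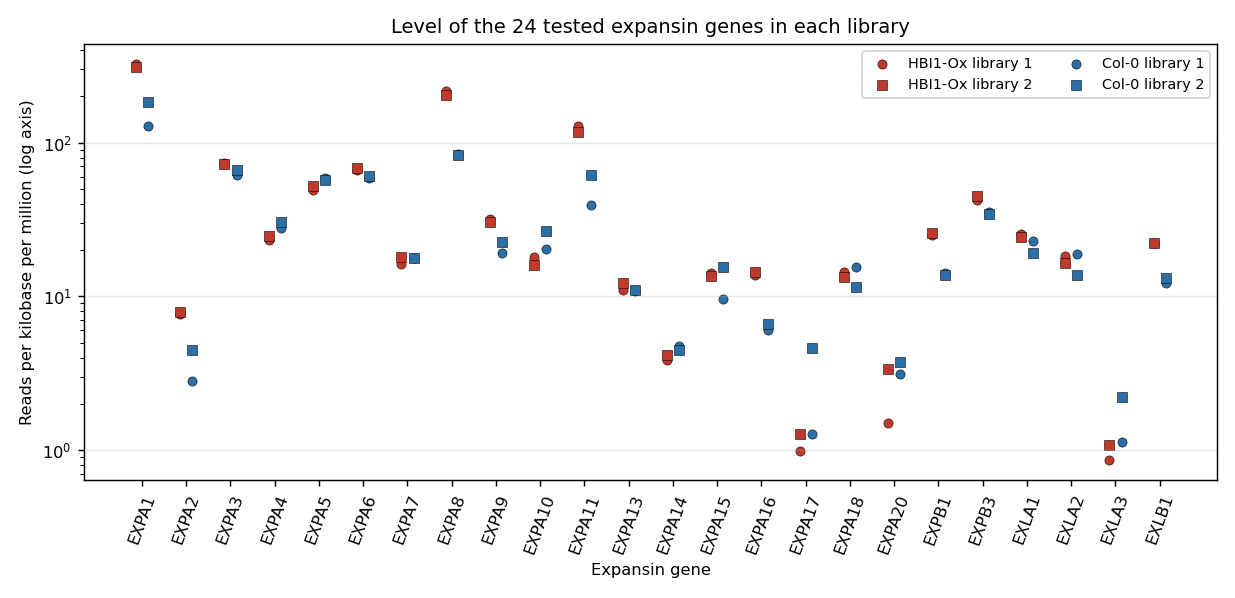
Levels per length (RPKM, log axis) of the 24 tested expansin genes are shown for the HBI1-Ox libraries in red and the Col-0 libraries in blue, with circles for library 1 and squares for library 2. EXPA1, EXPA8 and EXPA11 lie at or above 117 RPKM in both HBI1-Ox libraries, and the Col-0 libraries differ at least 1.44-fold for EXPA1, EXPA2, EXPA11, EXPA15, EXPA17 and EXLA3.

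Among the 12 tested alpha-expansins that did not pass, EXPA3, EXPA6 and EXPA5 were abundant and differed little. EXPA3 (AT2G37640) had 74.0 and 72.7 RPKM in HBI1-Ox and 61.3 and 66.8 RPKM in Col-0 (log2 change 0.20 ± 0.06, edgeR adjusted p = 0.0941). EXPA6 (AT2G28950) had 66.0 and 68.6 RPKM in HBI1-Ox and 58.7 and 61.1 RPKM in Col-0 (0.17 ± 0.06, adjusted p = 0.117). EXPA5 (AT3G29030), which is known for its part in brassinosteroid-regulated growth, had 49.0 and 52.2 RPKM in HBI1-Ox and 58.8 and 56.9 RPKM in Col-0 (-0.19 ± 0.06, adjusted p = 0.0971). With Col-0 library 1 or 2 left out, the log2 changes were 0.15 and 0.26 for EXPA3 and 0.15 and 0.20 for EXPA6. They were -0.16 and -0.22 for EXPA5. The groups of these 3 genes did not overlap, as was so for 29.7% of all tested genes in the higher and 31% in the lower direction. Over the 24 tested members the groups did not overlap for 13 with higher and 5 with lower values in HBI1-Ox.

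EXPA10 (AT1G26770), tied to leaf growth and pedicel abscission, and EXPA4 (AT2G39700) had lower values in HBI1-Ox and lay just outside the threshold. EXPA10 had 18.2 and 15.9 RPKM in HBI1-Ox and 20.4 and 26.6 RPKM in Col-0 (log2 change -0.45 ± 0.13, edgeR adjusted p = 0.0683). EXPA4 had 23.1 and 24.8 RPKM in HBI1-Ox and 27.7 and 30.4 RPKM in Col-0 (-0.28 ± 0.08, adjusted p = 0.0574). Both genes passed as lower without the low-count filter (adjusted p = 0.0152 for EXPA10 and 0.0418 for EXPA4), with scaling by total counts and without either Col-0 library.

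EXPA7 and EXPA18, expansins of root hairs, were measured at similar levels in both groups. EXPA7 (AT1G12560) had 16.3 and 18.1 RPKM in HBI1-Ox and 17.8 and 17.9 RPKM in Col-0, and its log2 change was -0.06 ± 0.09. EXPA18 (AT1G62980) had 14.4 and 13.4 RPKM in HBI1-Ox and 15.5 and 11.4 RPKM in Col-0, and its log2 change was 0.05 ± 0.15. Of 6 root hair markers, 1 rose (RHD2, the NADPH oxidase of growing hairs) and 5 did not pass (RHD6, RSL4, LRX1, PRP3 and COW1), and their summed level was 185 and 167 CPM in HBI1-Ox and 159 and 146 CPM in Col-0. RHD2 rose by 0.75 ± 0.07 (edgeR adjusted p = 0.00161).

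EXPA17 and EXPA14 are known to act in lateral root formation. EXPA17 (AT4G01630) had 20 reads in each HBI1-Ox library and 19 and 58 reads in Col-0. Its lower mean in HBI1-Ox rested on Col-0 library 2, which held 3.59 times the normalised level of Col-0 library 1 (log2 change -1.35 ± 0.59, edgeR adjusted p = 0.183). It was -2.03 with Col-0 library 1 left out, or -0.20 with Col-0 library 2 left out. EXPA14 (AT5G56320) had 3.85 and 4.16 RPKM in HBI1-Ox and 4.76 and 4.47 RPKM in Col-0 (-0.21 ± 0.13, adjusted p = 0.342).

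EXPA15 (AT2G03090) also depended on the Col-0 library. It had 14.2 and 13.6 RPKM in HBI1-Ox, inside the span of 9.68 and 15.5 RPKM in Col-0. The log2 change was 0.16 ± 0.20, but -0.14 with Col-0 library 1 left out, or 0.53 with Col-0 library 2 left out, where it passed. EXPA13 (AT3G03220) had 296 and 249 reads in HBI1-Ox and 211 and 182 reads in Col-0, with nearly equal levels after scaling (log2 change 0.09 ± 0.09). EXPA20 (AT4G38210) had 32 and 55 reads in HBI1-Ox and 48 and 49 reads in Col-0 (-0.52 ± 0.37, edgeR adjusted p = 0.397). EXPA20 shares 1061 bases with the opposite-strand gene AT4G38215, which had 1 read in every library. The sources used here do not give the strand setting of the counting. The counts hold a row of ambiguous reads, from 166684 in Col-0 library 2 to 270594 in HBI1-Ox library 1. Reads of the shared stretch may have been set aside in that row or counted to either gene.

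The remaining 10 members were left out by the low-count filter. EXPA12 (AT3G15370) had 4 and 2 reads in HBI1-Ox and 1 read in each Col-0 library, EXPA21 (AT5G39260) had 8 and 4 reads in HBI1-Ox and 7 and 3 reads in Col-0, and EXPB2 (AT1G65680) had 1 read in every library. EXPA21 shares 964 bases with the opposite-strand gene AT5G39250, which had 138 and 105 reads in HBI1-Ox and 95 reads in each Col-0 library. The few reads on EXPA21 may belong to either gene, and other reads of the shared stretch may have been set aside as ambiguous. EXPA22 to EXPA26, EXPB4 (AT2G45110) and EXPB5 (AT3G60570) had 0 reads in all 4 libraries, which allows up to 3 reads in each, or up to 0.161 and 0.211 CPM in the HBI1-Ox libraries and 0.221 and 0.260 CPM in the Col-0 libraries (counting error only). EXPA21, EXPA22 (AT5G39270), EXPA23 (AT5G39280), EXPA24 (AT5G39310), EXPA25 (AT5G39300) and EXPA26 (AT5G39290) form a tandem group on chromosome 5 between positions 15726243 and 15740605 (TAIR10.1). In this group EXPA22 and EXPA26 were 97.7% and EXPA23 and EXPA25 97.5% identical over their coding sequences. Of all 50-base windows in the exons of these 4 genes, up to 54.5% per gene occur more than once in the genome. The sources used here do not say how reads with several matches were treated. The counts hold a row for alignments that were not unique, which was 0 in all 4 libraries, so no read was set aside there. Whether such reads were dropped earlier or counted to a gene is unknown. The windows that occur once held no counted read either. EXPA24 had no repeated window and 0 reads. Outside this group EXPB5, also at 0 reads, had 15.5% of such windows repeated, and EXPB4 had none repeated.

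Summed over the 34 genes, the level was 1152 and 1121 RPKM in HBI1-Ox and 675 and 770 RPKM in Col-0. Of this sum EXPA1, EXPA8 and EXPA11 held 58.2% and 56.4% in HBI1-Ox and 37.3% and 42.8% in Col-0. These 3 genes were picked after their values were seen, as the rising members with the highest levels, so a higher share in HBI1-Ox follows from the choice. The other 31 genes summed to 481 and 489 RPKM in HBI1-Ox and to 423 and 440 RPKM in Col-0. Alpha-expansins made up 88.3% and 87.9% of the summed level in HBI1-Ox and 84.5% and 87.5% in Col-0. Beta-expansins made up 5.89% and 6.33% in HBI1-Ox and 7.38% and 6.24% in Col-0. The shares of beta-expansins overlapped between the groups. An exact permutation test of 2 against 2 libraries cannot go below p = 0.33, and the sums and shares are given as values without a test. The summed leaf mesophyll markers were also higher in HBI1-Ox than in Col-0. With TMM scaling 2 of 3 of these markers rose (LHCB2.1 by 0.83 ± 0.05 and LHCB1.1 by 0.30 ± 0.05), and RBCS1A did not pass. Their part in the result was not tested.

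**Figure D3:**
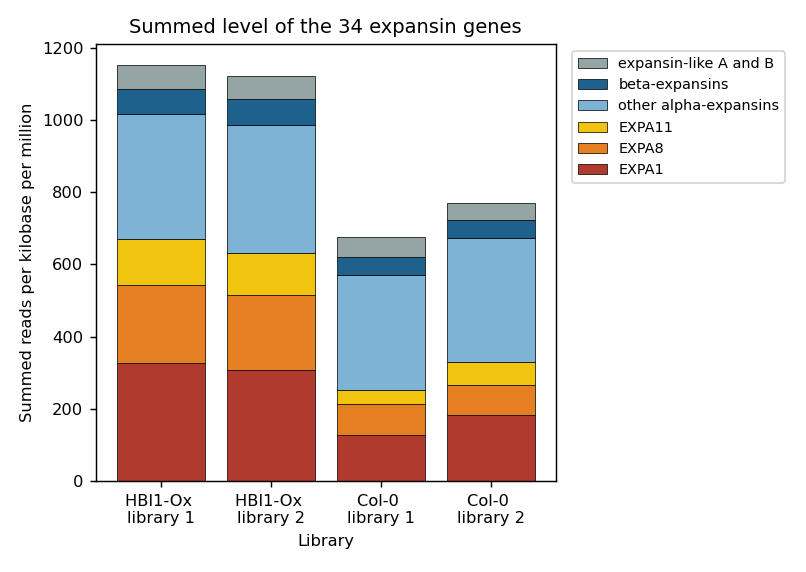
Bars give the summed level per length (RPKM) of the 34 expansin genes in each library, from 0, split into EXPA1, EXPA8, EXPA11, the other alpha-expansins, the beta-expansins and the expansin-like genes. The bars reach 1152 and 1121 RPKM in HBI1-Ox and 675 and 770 RPKM in Col-0, and the lower 3 segments hold most of that difference.

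Close relatives within the family were set side by side. At a coding sequence identity of at least 75% there were 13 pairs with both genes tested; both genes rose in 2 pairs, 1 of the pair rose in 5, and neither rose in 6. Pairs that share a gene are not independent. EXPA16 and EXPA4 were 81.1% identical, and the level of EXPA16 was 0.599 and 0.581 of that of EXPA4 in the HBI1-Ox libraries, against 0.219 and 0.217 in the Col-0 libraries. EXPA1 and EXPA10 were 79.7% identical and share the CACATGTG element shown above. EXPA1 stood at 18.0 and 19.4 times the level of EXPA10 in HBI1-Ox and at 6.27 and 6.91 times in Col-0. EXPA9 and EXPA3 were 77.3% identical, with EXPA9 at 0.428 and 0.419 of EXPA3 in HBI1-Ox and at 0.313 and 0.337 in Col-0. EXPB1 and EXPB3, at 78.4% identity, both rose, but EXPB1 stood at 0.593 and 0.574 of EXPB3 in HBI1-Ox and at 0.402 and 0.405 in Col-0. In these 4 pairs the ratio within a library, which does not depend on how libraries were scaled, did not overlap between the groups; the ratios are given as values without a test. EXPA7 and EXPA18, at 75.4% identity, had ratios of 1.13 and 1.34 in HBI1-Ox and 1.15 and 1.56 in Col-0, which overlapped. Of the 13 pairs, only EXLA2 over EXLA3 overlapped as well (21.0 and 15.4 in HBI1-Ox, 16.7 and 6.21 in Col-0). Pairs in which neither gene rose could thus lack overlap too, such as EXPA4 over EXPA6 (0.350 and 0.362 in HBI1-Ox, 0.472 and 0.497 in Col-0). The pairs described were picked from the 13, and a lack of overlap is not particular to pairs with a rising gene. No tested member had more than 1.26% of its 50-base windows repeated in the genome.

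**Figure D4:**
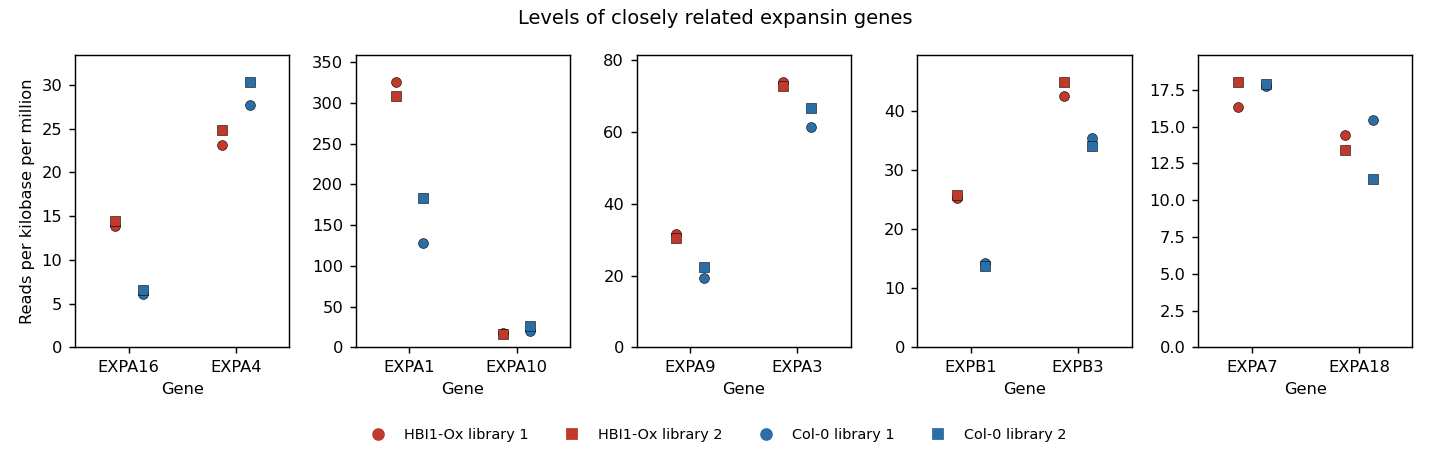
Levels per length (RPKM, axes from 0) of 5 pairs of related expansin genes are shown with HBI1-Ox libraries in red, left of the Col-0 libraries in blue. EXPA16, EXPA1 and EXPA9 are higher in HBI1-Ox while their relatives EXPA4, EXPA10 and EXPA3 did not pass, with log2 changes of -0.28, -0.45 and 0.20; EXPB1 and EXPB3 are both higher, and EXPA7 and EXPA18 overlap.

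The authors' deposited table of log2 changes lists 1256 genes, 600 with positive and 656 with negative values, and 8 of them are expansins, all with positive values. In the authors' deposited table the values were 1.04 for EXPA1, 1.12 for EXPA2, 1.34 for EXPA8, 0.59 for EXPA9, 1.30 for EXPA11, 1.18 for EXPA16, 0.88 for EXPB1 and 0.83 for EXLB1. The smallest absolute value in the authors' deposited table was 0.56, above the change of 0.33 fitted here for EXPB3, the only one of the 9 rising members that it does not list. The rule by which genes entered that table was not found in the sources used here.

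Expansin action depends on wall acidification, so 2 further gene lists were read from the same test. They were the 11 plasma membrane proton pump genes (AHA1 to AHA11) and the 9 clade D protein phosphatases (PP2C.D1 to PP2C.D9). Some clade D members inactivate these pumps, which is not claimed here for each of the 9. Of 10 tested pump genes 4 rose, none fell and 6 did not pass, where 8.33% of all tested genes were called higher and 7.15% lower. AHA11 had 160 and 157 CPM in HBI1-Ox and 99.3 and 94.4 CPM in Col-0 (log2 change 0.71 ± 0.06, edgeR adjusted p = 0.000987). AHA3 rose by 0.45 ± 0.06, AHA1 by 0.29 ± 0.05 and AHA2, the main pump of roots, by 0.23 ± 0.05. AHA1 and AHA2 are known to have closely related sequences. How many reads they share was not measured here, and the assignment of such reads is unknown. Each value thus carries an uncertainty of unknown size. Neither AHA1 nor AHA2 passed with scaling by total counts. Without HBI1-Ox library 1 or 2, or with these summed, AHA11 and PP2C.D7 were the only genes of either list still higher. Of the 9 phosphatase genes 1 rose, 1 fell and 7 did not pass, close to the shares of all tested genes called higher (8.33%) and lower (7.15%). PP2C.D7 (AT5G66080) had 30.5 CPM in each HBI1-Ox library and 9.01 and 10.4 CPM in Col-0, a rise of 1.66 ± 0.10 (edgeR adjusted p = 0.000279). PP2C.D1 (AT5G02760), a phosphatase that restrains cell expansion, had 18.0 and 16.8 CPM in HBI1-Ox and 40.5 and 40.7 CPM in Col-0, a log2 change of -1.22 ± 0.07 (adjusted p = 0.000279).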

How the data were processed

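For each of 4 total RNA libraries the authors deposited raw counts of reads per locus, as whole numbers that were not normalized. Per the submitters' processing notes TopHat, DESeq and the build TAIR10 were used; the sources used here give no version, read counter, strand setting or treatment of reads with several matches. Per the labels' protocols libraries were made with a TruSeq RNA kit. Rows that name no gene held between 13.2% and 13.7% of the reads and were left out. A further table deposited by the authors lists log2 changes, HBI1-Ox relative to Col-0, for selected genes.

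The filterByExpr filter (at least 10 reads, total of 15) left 20320 genes for the quasi-likelihood test of edgeR 4.0.16 (R 4.3.3; glmQLFit, glmQLFTest) on TMM-scaled counts of all 4 libraries. The fit had no block and 2 residual degrees of freedom, and p was adjusted by the Benjamini-Hochberg method over every gene tested, with calls at 0.05. A standard error is the size of a log2 change over the square root of its F. CPM and RPKM used TMM-scaled library sizes and, for RPKM, the merged exons of RefSeq TAIR10.1. All 34 loci matched that annotation. Coding sequences were aligned globally with Biopython 1.88. The chi-square test between libraries of a group was adjusted over all nuclear genes with at least 20 reads. Named genes were all 34 members, HBI1 and up to 6 called genes of the proton pump and phosphatase list. Members and lists were chosen with earlier results of these data known. The procedure was tested on simulated data. Alternatives were RLE factors, total counts, no filter, a filter of 1 CPM, limma-voom (limma 3.58.1), DESeq2 1.42.0, a block for the replicate number, omission of each library, summed HBI1-Ox libraries, a threshold of 0.01 and a 2-fold minimum.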

Additional observations from a re-analysis of the deposited data

How the results depend on the processing

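Of the 9 rising and 0 falling expansin genes, counts stayed at 9 and 0 with RLE factors, a filter of 1 CPM, DESeq2 and limma-voom. Rising members numbered 3 to 13 when 1 library was left out, 4 with the HBI1-Ox libraries summed and 5 with a 2-fold minimum. Falling members numbered 0 to 5 when 1 library was left out, 3 with total counts and 2 without the low-count filter. In the proton pump and phosphatase list 5 genes rose and 1 fell. Rises there were 2 to 7 when 1 library was left out, 3 with total counts, 2 with the HBI1-Ox libraries summed, 3 at a threshold of 0.01 and 1 with a 2-fold minimum. Falls were 1 to 4 when 1 library was left out, 6 with total counts, 3 without the low-count filter and 2 with limma-voom. Apart from the construction of these settings, the cause was not tested.

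The labels give both groups the numbers 1 and 2, but same-numbered libraries did not deviate together (r = -0.00316 across 20320 genes, where genes are not independent replicates). With the replicate number as a block, 9 expansin genes rose and none fell, and 4 genes of the pump and phosphatase list rose, AHA2 being lost (adjusted p = 0.0855).

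Over all tested genes, 1693 rose and 1452 fell. These counts were 995 and 3494 with total counts, 3516 and 3009 when the first Col-0 library was omitted (3010 and 2773 for the second), 242 and 187 when the first HBI1-Ox library was omitted (289 and 222 for the second), 307 and 271 with the HBI1-Ox libraries summed, 709 and 519 at a threshold of 0.01 and 261 and 515 with a 2-fold minimum. DESeq2 gave 844 falls. EXPA17, EXPA20 and EXLA3, the tested members with the fewest reads, had the largest standard errors.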
